A study of Homo sapiens with 2 samples.

Results

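The genes described here encode YAP and TAZ, the DNA-binding partners TEAD1 and TEAD4, and 6 regulators or targets of the pathway: YAP1, WWTR1 (TAZ), TEAD1, TEAD4, LATS2, CCN1 (formerly CYR61), CCN2 (formerly CTGF), ANKRD1, AMOTL2 and AJUBA. They are 10 of 25583 genes with a value in both libraries, and all 10 reached 1 FPKM in at least 1 library. Each gene was taken as its RefSeq transcripts together with the stranded assembled transcripts that share an intron with it, which gave 26 transcripts for shLacZ and 24 for shPSPC1. RNA was sequenced from A549 cells, a human lung adenocarcinoma line labelled as non-small cell lung cancer. The control library, shLacZ, came from cells with an shRNA against the bacterial gene LacZ, which human cells lack, and the other, shPSPC1, from cells with an shRNA against PSPC1, an RNA-binding protein of nuclear paraspeckles. Both were grown with 10% serum and 1% penicillin-streptomycin. Each group has 1 library, and the sources used here do not give whether cells were a single clone or a pool.

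In the Hippo pathway a chain of kinases ending in LATS1 and LATS2 phosphorylates the coactivators YAP and TAZ and keeps them out of the nucleus. Unphosphorylated YAP and TAZ bind TEAD factors on DNA and raise the transcription of genes such as CCN1, CCN2 and ANKRD1. Some of the targets, among them LATS2 and AMOTL2, encode inhibitors of YAP and TAZ. The pathway is controlled largely at the protein level, and protein and phosphorylation were not measured here.

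TEAD factors recognise the sequence GGAATG, or CATTCC on the other strand. RefSeq (GRCh38.p14) gave the bases before the transcription start for 7 of the 10 genes, and 5 of these had the motif on either strand within 250 bases before an annotated start. Of all 35116 such windows, 11.9% held the motif at least once, 0.94% at least 2 times and 0.0826% at least 3 times. These shares are per window, and WWTR1, AMOTL2 and AJUBA had 2 windows each, so they are not on the basis of the gene count. CCN2 had 3 matches and ANKRD1 had 2, while YAP1, and AMOTL2 and AJUBA at 1 of 2 annotated starts each, had 1. LATS2, also a target of the pathway, had no match in its window. Windows are shown for CCN2, ANKRD1 and AMOTL2, the target genes with a match. All 3 lie on the minus strand, at chr6:131951373-131951622, chr10:90921088-90921337 and chr3:134374448-134374697, and capitals mark the motif.
CCN2: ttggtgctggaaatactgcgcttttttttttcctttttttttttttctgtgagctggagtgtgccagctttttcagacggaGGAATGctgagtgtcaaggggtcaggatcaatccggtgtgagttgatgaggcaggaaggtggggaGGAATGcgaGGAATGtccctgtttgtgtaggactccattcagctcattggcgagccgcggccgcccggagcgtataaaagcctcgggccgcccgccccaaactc
ANKRD1: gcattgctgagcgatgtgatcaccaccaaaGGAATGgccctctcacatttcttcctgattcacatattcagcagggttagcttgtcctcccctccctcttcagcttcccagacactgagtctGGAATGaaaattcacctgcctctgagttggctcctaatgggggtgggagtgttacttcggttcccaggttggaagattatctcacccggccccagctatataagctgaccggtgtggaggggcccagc
AMOTL2: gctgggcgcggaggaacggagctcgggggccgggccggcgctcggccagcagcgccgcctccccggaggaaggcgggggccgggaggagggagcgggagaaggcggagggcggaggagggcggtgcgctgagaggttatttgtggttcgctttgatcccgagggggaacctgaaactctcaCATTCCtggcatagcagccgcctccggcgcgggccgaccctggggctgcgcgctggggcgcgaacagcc
In CCN2 the matches began 169, 104 and 95 bases before the start, in ANKRD1 220 and 128 bases before it, and in AMOTL2 69 bases before it. A match describes the letters only, and binding was not measured.

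Values are FPKM, a fragment density corrected for transcript length and library depth, summed over the transcripts of a gene. The ± after a value is the half-width of the 95% interval in the deposited files, which covers counting and assignment error within a library and not the spread between cultures. Log2 ratios are shPSPC1 over shLacZ on log2(FPKM + 1), so they understate changes of genes with low FPKM. Since a sum of FPKM moves with which short transcripts were assembled, a second measure, estimated fragments, is given beside it. Each group being 1 library, no difference has a replicate check or a test. In its place, sizes of 2-fold and 1.5-fold were used, each with at least 1 FPKM in the higher library and intervals that do not overlap. "Rose" and "fell" are used of genes past 1.5-fold by both measures.

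The implied depth was 56200000 fragments for shLacZ and 57100000 for shPSPC1, and the median log2 ratio of 11517 genes at 1 FPKM or more was 0.006. PSPC1 fell from 31.5 ± 1.25 to 17.7 ± 0.858 FPKM, to 56.3% of the control level, so the targeted RNA was lower in the library labelled shPSPC1 but not absent. Of 7 epithelial markers 6 reached 1 FPKM, led by KRT18, and CLDN4 was listed at 0 in both libraries. All 6 had a log2 ratio below 0, and their list sum was 3708 FPKM for shLacZ and 2920 in the knockdown library. Of 8 leukocyte markers CD68 and CD14 alone reached 1 FPKM, with CD3E and MS4A1 listed at 0 in both, and the list sum was 18.3 and 11.7 FPKM. None of 11 fibroblast and endothelial markers reached 1 FPKM.

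Of the 10 genes, CCN2 alone fell, and none rose. Past 2-fold on the log2(FPKM + 1) scale there were 0 in either direction, where 1.71% of all genes tested were higher and 2.01% lower. By estimated fragments there were also 0, against 1.79% higher and 1.9% lower. Past 1.5-fold 1 was lower and 0 higher by either measure, where 5.5% of all genes were lower and 4.4% higher by summed FPKM, and 4.72% and 3.41% by estimated fragments. By both measures at once the shares of all genes were 3.5% lower and 2.32% higher, and 1 of 10 genes is too few to set apart from them. In such bulk RNA, fewer cells that express a gene and less RNA per cell cannot be told apart. Intervals did not overlap for 4 lower genes (WWTR1, CCN2, ANKRD1 and AJUBA) and 1 higher (TEAD1), against 25.6% lower and 26% higher among all genes. By estimated fragments there were again 4 lower, with AMOTL2 in place of ANKRD1, and TEAD1 was again the 1 higher, against 24.6% and 24.7%. The median log2 ratio of the 10 genes was -0.15, and -0.20 by estimated fragments, with 7 of 10 below 0 by either measure, while 49.1% of all genes were below 0.

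**Figure D1:**
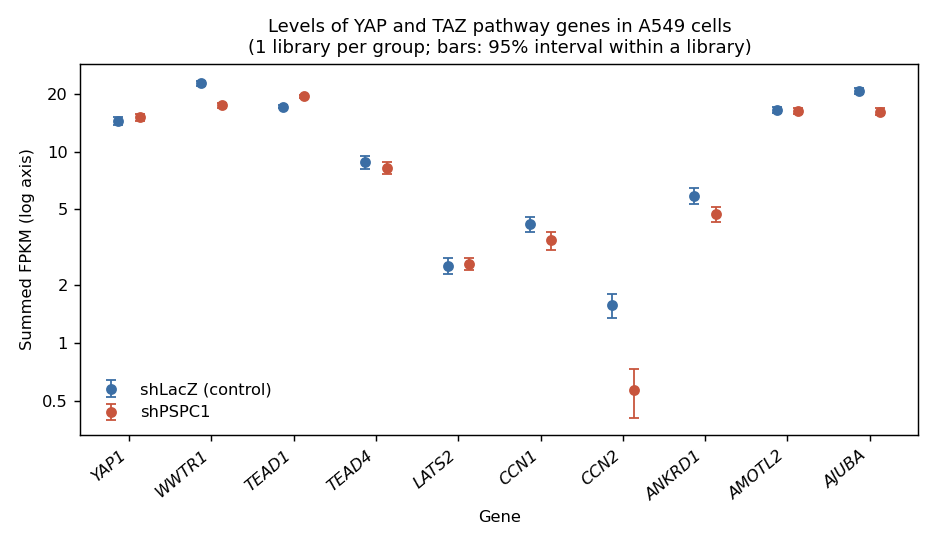
Summed FPKM of the 10 genes (log axis) in the shLacZ and shPSPC1 libraries, with the 95% interval of each value within its library. WWTR1 and AJUBA were above 20 FPKM in the control alone, and CCN2 was the lowest gene in both libraries, at 1.58 and 0.568 FPKM.

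YAP1, the coactivator gene on the plus strand of chromosome 11 (101981192 to 102104154 in the files' coordinates), stood at 14.4 ± 0.678 FPKM for shLacZ and 15.1 ± 0.623 FPKM for shPSPC1. The intervals overlapped, with a log2 ratio of 0.06 and bounds of -0.06 and 0.18. By estimated fragments the ratio was 0.04, from 4195 and 4380 fragments. The sum for YAP1 thus showed no separation between the libraries, but its make-up differed between the files.

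In the knockdown file an assembled transcript of 14 exons ran from the upstream gene CFAP300 into YAP1. It held 6 exons before the annotated start of YAP1 and 8 within the gene, and its 13 introns included 5 of CFAP300 and 5 of YAP1. Of the 3 introns found in neither annotation, 1 of 32862 bases (101952013 to 101984874) joined CFAP300 to the YAP1 exon after its annotated first one. The transcript stood at 3.20 ± 0.275 FPKM, 21.2% of the YAP1 sum in that library, and no such transcript was in the control file. CFAP300, which encodes a protein of motile cilia, stood at 5.05 ± 0.957 FPKM in the control, and the shPSPC1 file lists it at 0, where the joined transcript carried 5 of its introns. By estimated fragments CFAP300 stood at 1.69 FPKM in the control, from 194 fragments, and the joined transcript held 880 fragments. Since the joined transcript shares as many introns with either gene, shared introns do not assign it to 1 of them, and it was counted with YAP1. Of its 4981 bases, 4213 lay in annotated YAP1 exons. Without the whole transcript, and so without those bases, YAP1 stood at 14.4 ± 0.678 and 11.9 ± 0.559 FPKM, a log2 ratio of -0.26. By estimated fragments over RefSeq exons only, an alternative chosen after seeing the data, the ratio was -0.005. The sign of the YAP1 difference thus rests on how this transcript is counted.

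**Figure D2:**
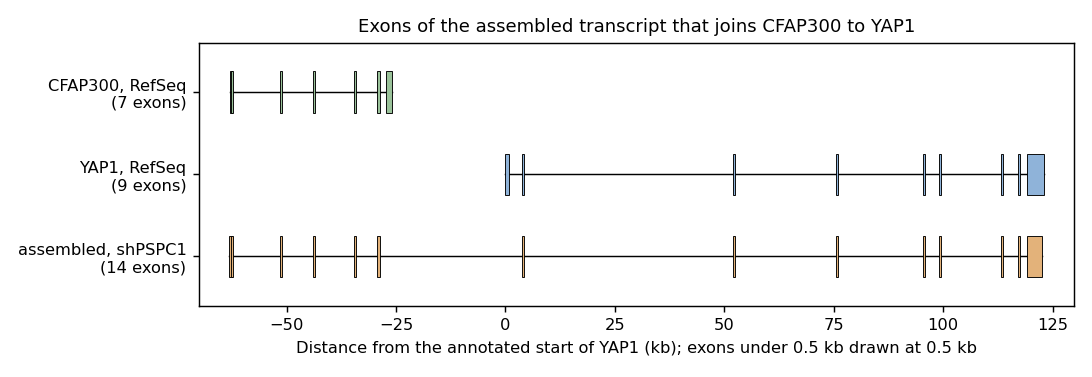
Exons of CFAP300, of a RefSeq form of YAP1 and of the transcript assembled in the shPSPC1 library, by distance in kb from the annotated start of YAP1. The assembled transcript has 14 exons, of which 6 lie before that start, and it lacks the annotated first exon of YAP1.

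YAP1 is spliced in several forms, and 2 exons that differ between its RefSeq transcripts were followed. The exon of 114 bases, the fourth, encodes the second WW domain, which shorter YAP forms lack, and that of 48 bases, the sixth, lengthens the transactivation domain. They lie at 102056749 to 102056862 and at 102080248 to 102080295 in the files' coordinates. Their sequences are shown to mark what separates the forms, from the GENCODE 29 annotation (GRCh38, plus strand, chr11:102186018-102186131 and chr11:102209517-102209564). The exon is in capitals and 15 bases of each neighbouring exon are in lower case.
YAP1 exon 4: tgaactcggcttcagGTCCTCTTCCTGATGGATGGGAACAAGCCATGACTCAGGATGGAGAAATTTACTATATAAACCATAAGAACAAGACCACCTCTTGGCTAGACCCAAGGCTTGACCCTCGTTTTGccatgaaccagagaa
YAP1 exon 6: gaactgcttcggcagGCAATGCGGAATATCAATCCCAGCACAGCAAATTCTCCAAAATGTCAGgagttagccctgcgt
Transcripts with the 114-base exon carried 11.0 ± 0.527 FPKM for shLacZ and 12.2 ± 0.566 FPKM for shPSPC1, and those without it 3.44 ± 0.427 and 2.84 ± 0.261 FPKM. The share with it was 76.2% and 81.2%, and over RefSeq transcripts alone 76.2% and 76.1%. Most YAP1 RNA in both libraries therefore held this exon, and the difference in share lay in the joined transcript, in which the exon ends 6 bases later. The 48-base exon was in 37.6% of YAP1 FPKM in the control (34.7% to 40.7% from the intervals) and in 47.5% in the knockdown library (44.6% to 50.4%). Over RefSeq transcripts alone the shares were 37.6% and 33.4%, so the direction for this exon turned with the joined transcript.

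WWTR1, the TAZ gene, is on the minus strand of chromosome 3 (149235022 to 149421060). It stood at 22.7 ± 0.763 FPKM for shLacZ and 17.4 ± 0.6001 FPKM for shPSPC1, with a log2 ratio of -0.37 (bounds -0.46 and -0.27). By estimated fragments, 5776 and 4875, the ratio was -0.25. Both measures place the knockdown library lower with intervals apart, short of 1.5-fold.

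The WWTR1 transcripts differed more than their sum. In the control an assembled form of 6 exons that starts at 149293929, inside the gene, carried 9.51 ± 0.504 FPKM, or 41.9% of the gene, and no transcript of the knockdown file used its first intron. The intron from 149290788 to 149374662, which joins the upstream exons to the body of the gene, carried 13.2 ± 0.574 FPKM for shLacZ and 17.4 ± 0.6001 FPKM for shPSPC1, which is the opposite direction to the sum. Depending on whether the internal form is counted, WWTR1 was thus lower or higher in the shPSPC1 library, and with RefSeq transcripts alone its log2 ratio was 1.45. Of the 4376 bases of the internal form, 4267 lay in annotated WWTR1 exons, so leaving it out drops those bases from the control. Over RefSeq exons only, an alternative chosen after seeing the data, the WWTR1 ratio by estimated fragments was -0.24. The ratio of WWTR1 to YAP1 FPKM was 1.57 (1.45 to 1.71) in the control and 1.16 (1.07 to 1.25) in the knockdown library, and 1.45 and 1.17 by estimated fragments. This order in the control rests on the internal form. The other WWTR1 transcripts summed to 13.2 ± 0.574 FPKM there, against 14.4 ± 0.678 FPKM for YAP1, with overlapping intervals.

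TEAD1, a TEAD transcription factor on the plus strand of chromosome 11 (12695969 to 12966284), had 1 transcript with the same 13 exons in both files. It stood at 17.2 ± 0.364 FPKM for shLacZ and 19.5 ± 0.384 FPKM for shPSPC1, from 8943 and 10285 fragments. The log2 ratio was 0.17 with bounds of 0.11 and 0.23, the only one of the 10 genes higher with intervals apart. TEAD1 had the most fragments of the set, and no assembled form enters its value in either file.

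TEAD4 lies on the plus strand of chromosome 12 (3068478 to 3149842) and stood at 8.78 ± 0.676 and 8.19 ± 0.594 FPKM, with overlapping intervals and a log2 ratio of -0.09. Most of its FPKM was in the 13-exon RefSeq form, at 6.31 ± 0.584 and 6.44 ± 0.570 FPKM. That form held 580 of 1276 estimated fragments of the gene for shLacZ and 600 of 1122 for shPSPC1. The TEAD4 log2 ratio by estimated fragments was -0.19, again with overlapping intervals. Both files also held an assembled form of 12 exons with a longer last exon, at 1.51 ± 0.242 and 1.75 ± 0.168 FPKM, and the control file held 1 more, of 8 exons, at 0.957 ± 0.240 FPKM. Over the TEAD genes TEAD1, TEAD2, TEAD3 and TEAD4 the sum was 38.5 FPKM for shLacZ and 38.1 in the knockdown library. TEAD1 made up 44.6% and 51.1% of it, TEAD2 29.9% and 24.1%, and TEAD4 22.8% and 21.5%. TEAD3 was the least abundant, at 2.67% and 3.33%. These shares are by summed FPKM, and by estimated fragments the order of TEAD2 and TEAD4 turned in both libraries. By that measure TEAD4 stood at 13.9 FPKM for shLacZ and 12.05 for shPSPC1, and TEAD2 at 11.3 and 8.97 FPKM. The ratio of TEAD1 to TEAD4 was 1.96 and 2.38 by summed FPKM, and 1.24 and 1.62 by estimated fragments.

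LATS2, the kinase that phosphorylates YAP and TAZ and is itself one of their targets, is a minus-strand gene of chromosome 13 (21547175 to 21635722). It was low in both libraries, at 2.54 ± 0.238 and 2.59 ± 0.184 FPKM, with overlapping intervals and a log2 ratio of 0.02. The full 8-exon form stood at 1.89 ± 0.168 FPKM for shLacZ and 2.59 ± 0.184 FPKM for shPSPC1, and the rest of the control value was an assembled form of 5 exons at 0.653 ± 0.168 FPKM. By estimated fragments, 675 and 795, the ratio was 0.15, again with overlapping intervals.

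CCN2, which encodes a secreted matricellular protein (connective tissue growth factor) and is among the most used readouts of YAP and TAZ, is a minus-strand gene of chromosome 6 (132269316 to 132272518). It stood at 1.58 ± 0.227 FPKM for shLacZ and 0.568 ± 0.163 FPKM for shPSPC1, from 194 and 74 fragments. This was 35.9% of the control level, with intervals that do not overlap, in the least abundant gene of the set. The log2 ratio was -0.72 (bounds -0.999 and -0.44), and -0.69 by estimated fragments. The knockdown file also held a single-exon assembled piece on the gene's strand, at 0.304 ± 0.145 FPKM, over the last exon and past its annotated end. Counted with the gene, it brought the knockdown value to 0.872 ± 0.218 FPKM, the log2 ratio to -0.46 and the fragments to 101, or 52.1% of the control, and the gene no longer passed 1.5-fold on the log2(FPKM + 1) scale.

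CCN1, the related matricellular gene on the plus strand of chromosome 1 (86046444 to 86049650), stood at 4.16 ± 0.373 and 3.43 ± 0.367 FPKM. The log2 ratio was -0.22, and the intervals overlapped narrowly, with bounds of -0.44 and 0.003. Of the knockdown value 0.546 ± 0.166 FPKM lay in an assembled form of 4 exons that runs past the annotated end. The ratio by estimated fragments was -0.21, from 499 and 422 fragments. CCN1 was thus below its control value without a separation of the intervals, and whether CCN1 and CCN2 differ in response was not tested.

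ANKRD1 encodes an ankyrin-repeat protein of the nucleus and muscle sarcomere and is a minus-strand gene of chromosome 10 (92671857 to 92681032). It stood at 5.89 ± 0.578 FPKM for shLacZ and 4.72 ± 0.427 FPKM for shPSPC1, a log2 ratio of -0.27 with intervals just apart. The 9-exon RefSeq form alone stood at 4.89 ± 0.466 and 4.72 ± 0.427 FPKM, with overlapping intervals. An assembled form of 8 exons, which skips 1 exon, added 0.997 ± 0.342 FPKM in the control file only. By estimated fragments, 579 and 488, the intervals overlapped.

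AMOTL2, a junction-associated angiomotin that binds and restrains YAP and is a target of it, is a minus-strand gene of chromosome 3 (134074190 to 134093406). It stood at 16.5 ± 0.636 and 16.3 ± 0.681 FPKM, and the log2 ratio was -0.01. By estimated fragments, 3892 and 3643, the ratio was -0.11 and the intervals were apart. In the control, 11.3 ± 0.508 FPKM lay in an assembled form with the introns of the RefSeq form and a shorter last exon, and the RefSeq form itself stood at 2.901 ± 0.269 FPKM. In the knockdown library the RefSeq form stood at 10.0 ± 0.418 FPKM. There an assembled form of 6.26 ± 0.537 FPKM replaced the whole last exon by 1 outside the annotated gene, through an intron of 6155 bases (134071227 to 134077381) that the control file lacks. With RefSeq transcripts alone the log2 ratio of AMOTL2 was 1.502.

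AJUBA, a LIM-domain protein that binds LATS kinases and lowers their action on YAP, is a minus-strand gene of chromosome 14 (23440409 to 23451851). It stood at 20.7 ± 0.688 FPKM for shLacZ and 16.2 ± 0.628 FPKM for shPSPC1, from 4557 and 3779 fragments. The log2 ratio was -0.34 (bounds -0.44 and -0.24), and -0.28 by estimated fragments, so AJUBA was lower by both measures and short of 1.5-fold, whereas with RefSeq transcripts alone it was -0.90. The short RefSeq form of 6 exons was at 3.36 ± 0.365 FPKM in the control, and the shPSPC1 file lists it at 0. The introns that only the long form uses carried 17.3 ± 0.583 and 16.2 ± 0.628 FPKM, with overlapping intervals.

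**Figure D3:**
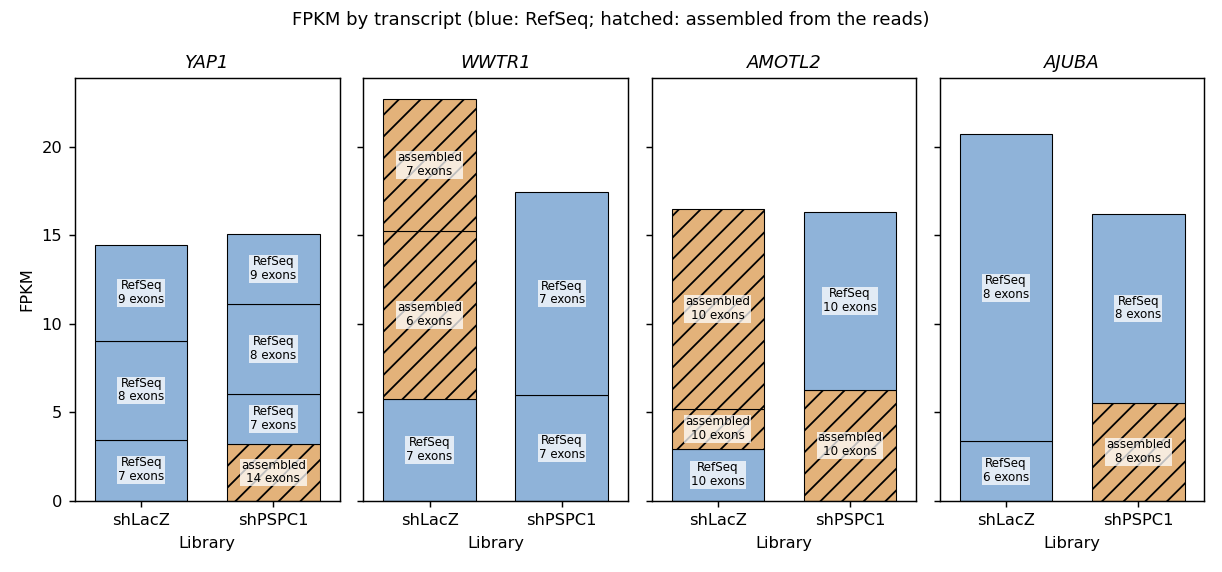
FPKM of YAP1, WWTR1, AMOTL2 and AJUBA split by transcript in each library, RefSeq forms in plain blue and assembled forms hatched, each with its number of exons. The sums of YAP1 (14.4 and 15.1 FPKM) and AMOTL2 (16.5 and 16.3 FPKM) were close between libraries although the forms that make them up differ.

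**Figure D4:**
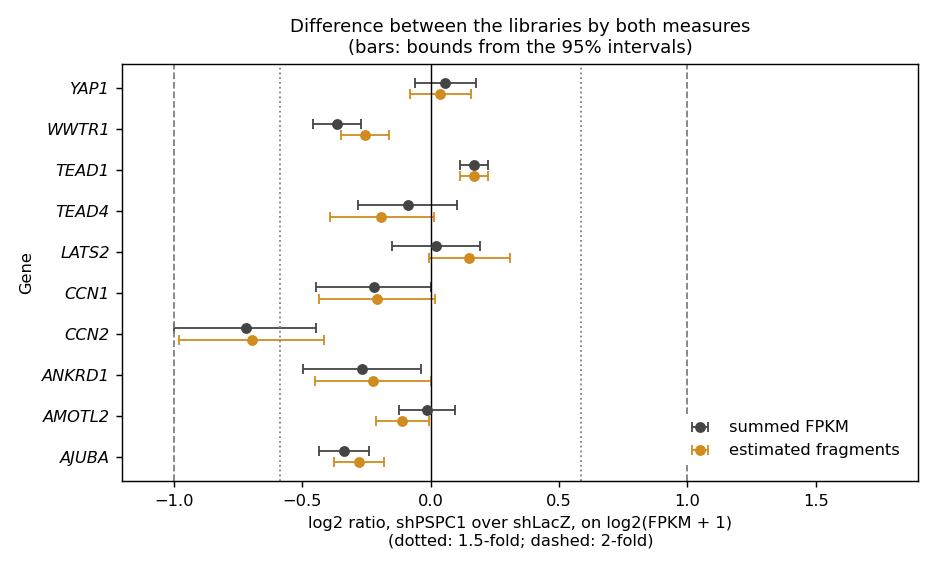
Log2 ratios (shPSPC1 over shLacZ, log2(FPKM + 1)) of the 10 genes by summed FPKM and by estimated fragments, with bounds from the 95% intervals. CCN2 alone lies past the dotted 1.5-fold line by both measures, at -0.72 and -0.69, and TEAD1 is the only gene with both bounds above 0.

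Ordered by FPKM, the control ran WWTR1, AJUBA, TEAD1, AMOTL2, YAP1, TEAD4, ANKRD1, CCN1, LATS2 and CCN2. Only TEAD1 and AMOTL2 were neighbours with overlapping intervals. In the knockdown library TEAD1 stood first, and WWTR1, AMOTL2, AJUBA and YAP1 followed with each overlapping the next. The order of TEAD4, ANKRD1, CCN1, LATS2 and CCN2 below them was the same in both libraries. YAP1, WWTR1 and TEAD1 thus stood above the targets CCN1, CCN2, ANKRD1 and LATS2 in FPKM in both libraries. The target AMOTL2 stood above YAP1 in value in both, with overlapping intervals for shPSPC1.

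Assembled pieces without a strand also lay inside some of the genes and are not in the gene values. In the control file 6 such pieces lay in introns 4 and 5 of TEAD1, between 188 and 196 kb from its start, with 402 estimated fragments over 3153 bases, and the knockdown file held none there. AMOTL2 held 8 pieces with 242 fragments in the control and 7 with 338 in the knockdown file. None of the TEAD1 pieces overlapped an annotated exon of the gene.

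Among the kinases and upstream proteins of the pathway NF2 alone fell by both measures, and none rose. Of 19 such genes 18 reached 1 FPKM, and past 1.5-fold 0 were higher and 2 lower by summed FPKM, NF2 and MAP4K4, against 4.4% higher and 5.5% lower among all genes. By both measures 1 of 18 was lower, near the 3.5% of all genes. The median log2 ratio of the 18 was -0.02, and -0.04 by estimated fragments. NF2, which encodes Merlin, a membrane-linked activator of LATS kinases, fell from 21.3 ± 0.811 to 11.7 ± 0.599 FPKM, with log2 ratios of -0.81 by sum and -0.84 by fragments. From 5591 fragments to 3015, it went to 53.1% of the control by that measure, and 33.6% of NF2 FPKM lay in intron chains found in 1 file only. MAP4K4, a kinase that acts on LATS beside the MST kinases, stood at 33.4 ± 0.935 and 19.8 ± 0.544 FPKM, but at 8805 and 8207 fragments, a ratio of -0.12, and with RefSeq transcripts alone its ratio turned to 1.27. MOB1A, the LATS cofactor and the most abundant gene of the list, stood at 62.5 ± 1.69 and 64.6 ± 1.76 FPKM with overlapping intervals. MOB1B stood at 1.40 ± 0.121 and 0.794 ± 0.113 FPKM, from 535 and 309 fragments, or 56.8% of the control. Its intervals were apart, but it was short of 1.5-fold on the log2(FPKM + 1) scale. The scaffold gene WWC1 (KIBRA) stood at 33.3 ± 0.790 and 31.6 ± 0.778 FPKM. By estimated fragments, 11203 and 9270, its ratio was -0.29, and 60.4% of its FPKM lay in intron chains found in 1 file only.

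Among 12 other regulators and TEAD partners LIMD1 rose. Of the 10 at 1 FPKM or more, 2 were higher past 1.5-fold by summed FPKM, 1 by both measures, and 0 were lower, where 4.4% of all genes were higher by summed FPKM and 2.32% by both. These counts are too small to set apart from those shares. The median log2 ratio was -0.03 by sum and -0.10 by fragments. LIMD1, a LIM-domain gene of the same family as AJUBA that also binds LATS, rose from 5.55 ± 0.254 to 8.96 ± 0.320 FPKM, from 1911 to 3131 fragments, a log2 ratio of 0.60. Each of its expressed transcripts had the same introns in both files, but with a pseudocount of 5 FPKM the ratio was 0.40 and the call was lost. The third gene of that family, WTIP, stood at 8.12 ± 0.532 and 6.46 ± 0.471 FPKM, so that AJUBA and WTIP were lower in value and LIMD1 higher. VGLL3, a TEAD cofactor named after its values were seen, was the other gene past 1.5-fold by summed FPKM, at 3.08 ± 0.159 and 5.42 ± 0.278 FPKM, with a ratio of 0.20 by estimated fragments and of -1.16 with RefSeq transcripts alone. TEAD2 stood at 11.5 ± 0.741 and 9.20 ± 0.629 FPKM, and the polarity gene PARD3, the most abundant of this list, at 89.6 ± 1.49 and 83.5 ± 2.07 FPKM. By estimated fragments the PARD3 ratio was -0.27, and 66.3% of its FPKM lay in intron chains found in 1 file only. PTPN14 stood at 2.71 ± 0.121 and 1.74 ± 0.114 FPKM, or 64.3% of the control. Its intervals were apart, but it was short of 1.5-fold on the log2(FPKM + 1) scale. AMOT, the founding angiomotin, was nearly absent, at 0.0196 and 0.0165 FPKM, and VGLL1 was listed at 0 in both libraries.

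Other YAP and TAZ targets, taken from a published target signature, were lower in value more often than higher. All 16 reached 1 FPKM, and 13 had a log2 ratio below 0 (12 by estimated fragments), where 49.1% of all genes did (48.9%). Intervals were apart for 9 lower and 1 higher by either measure. Among all genes the shares were 25.6% lower and 26% higher by summed FPKM, and 24.6% and 24.7% by estimated fragments. The median log2 ratio of the 16 was -0.12 by both measures. Past 1.5-fold 2 fell and 0 rose by both measures, against 3.5% and 2.32% of all genes, and these counts are too small to set apart from those shares. TGFB2, a TGF-beta ligand, fell from 21.5 ± 0.518 to 12.05 ± 0.385 FPKM, from 6900 to 3926 fragments, at a log2 ratio of -0.79. CCDC80, a matrix-associated protein gene, fell from 26.96 ± 0.663 to 12.9 ± 0.463 FPKM, where the log2 ratios were -1.01 by sum, past 2-fold, and -0.75 by fragments. IGFBP3, a secreted binder of insulin-like growth factors and the most abundant of the list, went the other way, at 75.9 ± 2.06 and 106.3 ± 2.94 FPKM, a ratio of 0.48 short of 1.5-fold. MYOF stood at 61.6 ± 1.21 and 59.9 ± 0.949 FPKM with overlapping intervals, and CRIM1 at 42.9 ± 0.749 and 39.7 ± 0.715 FPKM. The 6 epithelial markers at 1 FPKM or more had a median of -0.33, with 6 of 6 below 0 and their sum at 3708 and 2920 FPKM, and their part in this result was not tested.

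**Figure D5:**
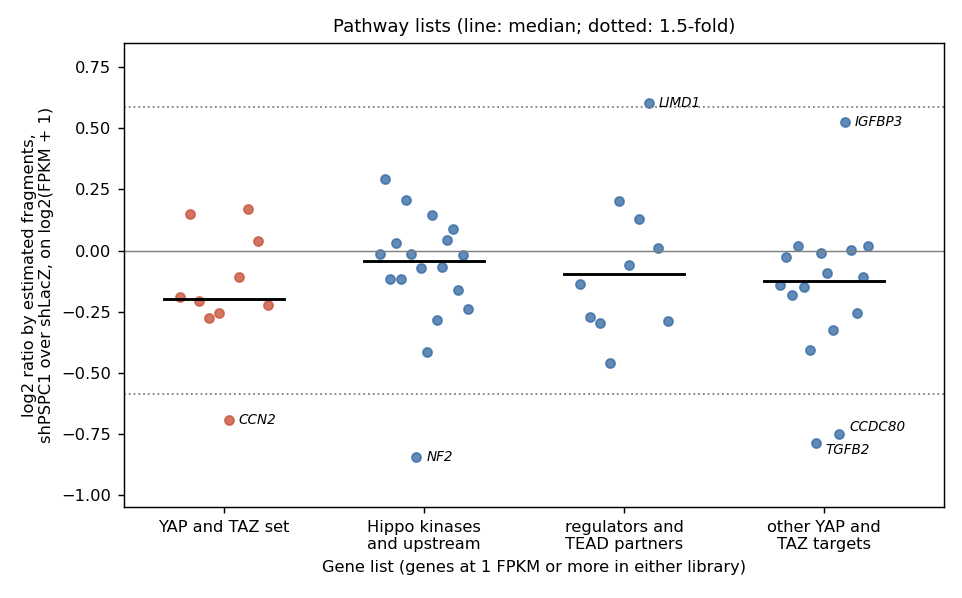
Log2 ratios by estimated fragments of the 10 genes and of 3 further pathway lists, each point 1 gene at 1 FPKM or more in either library, with the median of each list as a line. NF2 (-0.84), TGFB2 (-0.79), CCDC80 (-0.75) and CCN2 (-0.69) lie below the dotted 1.5-fold line and LIMD1 (0.60) above it.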

How the data were processed

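RNA of 1 shLacZ and 1 shPSPC1 library of A549 cells was compared. The authors' deposited files list transcripts with FPKM, an interval and a coverage, per the attribute names in the files. Tools named in the notes on processing by the submitters are Cufflinks 2.1.1, TopHat2 2.0.7 and CASAVA 1.8.2. Genome build, strandedness and RNA selection are not given in the sources used here, and coordinates without a stated build are the files' own. RefSeq transcripts were joined to genes by accession or gene identifier, and stranded assembled transcripts by the most shared introns. A gene's FPKM is the sum over its transcripts, and its half-width the root of summed squares. Depth and mean fragment lengths (162 and 166 bases) were estimated from lone single-exon transcripts with 5 to 200 fragments, whose intervals imply whole fragment numbers within 0.02 for 95.4% and 95.6%. Estimated fragments are FPKM times effective length, summed and then divided by the effective length of the gene's longest RefSeq transcript for ratios. The pseudocount was 1 FPKM, and the scripts (Python 3.11.15) were tested on simulated data. Both simulated libraries held the shLacZ transcripts, with changes set only on genes at 5 FPKM or more. The simulation therefore does not cover transcripts assembled in 1 file only, or changes in genes as low as CCN2.

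Genes named are the 10 of the set, PSPC1 and, in each of 3 further lists, the 3 with the highest control FPKM and up to 6 past 1.5-fold by both measures. TEAD3, AMOT, VGLL1, VGLL3, MOB1B, PTPN14 and CFAP300 fall outside this rule and were chosen after their values were seen. The members and lists were chosen with earlier results of these data known. With 2 libraries no gene could be ranked by likeness of pattern. Alternatives were another pseudocount, a level filter, other sets of transcripts, estimated fragments and other scalings. The value of 1 leukocyte marker is not reported here.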

Additional observations from a re-analysis of the deposited data

Results flagged for a closer look

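At 2 of the genes, assembled pieces without a strand, which are outside the gene values, were in the shPSPC1 file and not in the shLacZ file. Assembled pieces without a strand inside AJUBA numbered 2 in the knockdown file, with 75 estimated fragments, and 0 in the control file. Inside WWTR1 there was 1 such piece, with 10 estimated fragments, and 0 in the control file. The reverse held for TEAD1 (6 pieces, 402 fragments) and LATS2 (2 pieces, 33 fragments), with pieces in the control file only. Over all loci, assembled transcripts without a strand numbered 29208 for shLacZ and 36255 for shPSPC1.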

How the results depend on the processing

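With 0 of the 10 genes past 2-fold in either direction and 1 lower past 1.5-fold, these counts depended on low values and on the transcripts used. A pseudocount of 0.1 FPKM gave 1 lower past 2-fold, CCN2, whereas a pseudocount of 5 FPKM, a minimum of 5 FPKM and the inclusion of stranded transcripts lying at least 0.5 within the exons each gave 0 lower past 1.5-fold. With RefSeq transcripts only, 2 genes were higher past 2-fold and past 1.5-fold, WWTR1 (log2 ratio 1.45) and AMOTL2 (1.502), and 2 were lower past 1.5-fold, CCN2 and AJUBA. With the most abundant transcript only, 2 were lower past 1.5-fold. The log2 ratio of PSPC1 was -2.46 with RefSeq transcripts only and -0.58 with the most abundant transcript only, against -0.79. CCN2 ranged from -1.33 to -0.24 and was below 0 under all 9 alternatives that gave it a value. TEAD1 ranged from 0.14 to 0.18 over 10, YAP1 from -0.26 to 0.07, with the sign kept in 7 of 10, and WWTR1 from -0.38 to 1.45, with the sign kept in 8 of 10. Over RefSeq exons only, an alternative chosen after seeing the data, the YAP1 ratio by estimated fragments was -0.005. Median and upper quartile scaling shifted log2 ratios by -0.0076 and 0.00829. In the other lists, counts past 1.5-fold also moved: with RefSeq transcripts only or the most abundant transcript only, 4 other targets in place of 2 were lower, 2 regulators in place of 0 were lower and 1 in place of 2 higher, and 1 kinase or upstream gene in place of 2 was lower. With RefSeq transcripts only, 1 kinase, MAP4K4, was instead higher past 1.5-fold and 2-fold, with its log2 ratio turned from -0.73 to 1.27, and VGLL3 turned from 0.65 to -1.16. A pseudocount of 5 FPKM left 0 regulators higher past 1.5-fold, with LIMD1 at 0.40, and a pseudocount of 0.1 FPKM gave 3 kinases or upstream genes lower and 1 regulator lower. NF2, TGFB2 and CCDC80 were lower past 1.5-fold under all 10 alternatives. The cause of these differences was not tested. No paired analysis was possible because each group has 1 library. Counting error limits CCN2 most, with 74 fragments in the knockdown library.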
